A study of Homo sapiens with 3 samples.

Results

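The 36 genes described here are those of glycolysis and of the response to low oxygen, read in RNA sequencing of Ishikawa cells. They were chosen by name: the rows of the deposited table whose gene is 1 of 23 genes of glycolysis and its regulation, 11 targets of the hypoxia-inducible factors (HIF) outside glycolysis, or the genes of the 2 HIF alpha subunits HIF1A and EPAS1. All 36 were found among 35713 rows. Ishikawa cells are an established line from a human endometrial adenocarcinoma. In 2 libraries, CLDN6 replicates 1 and 2, the cells transiently overexpressed claudin-6, a tight junction protein, after addition of a lentiviral vector; the other library came from wild-type (WT) cells without treatment. All 3 were grown in the same RPMI medium with serum. No library of empty-vector cells is used here, so what the vector did and what CLDN6 did cannot be told apart, and nothing in the labels says that the libraries came from separate cultures.

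Glycolysis splits glucose into pyruvate. Glucose enters through transporters, is trapped by hexokinase, committed by phosphofructokinase, cleaved by aldolase and carried by the lower enzymes to pyruvate, which lactate dehydrogenase turns into lactate. When oxygen is low, HIF alpha subunits escape degradation and switch on many of these genes together with genes of angiogenesis, mitophagy, collagen hydroxylation and oxygen sensing. The control of HIF alpha is largely at the protein, which RNA does not show.

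HIF binds a short core, ACGTG or GCGTG. The stretches below hold the core just before a RefSeq start of 2 members, with the matches on either strand in capitals: PGK1, a lower glycolytic enzyme, and BNIP3, a mitophagy receptor. PGK1 and BNIP3 lie on opposite sides of the pattern described below. Only members with a match in such a stretch were picked, so that both stretches hold the core was fixed beforehand. Both come from the RefSeq promoter table (GRCh38.p14), written 5′ to 3′ on the gene's strand and cut to the part outside the gene's own exons, at chrX:78103998-78104173 on the plus strand for PGK1 and chr10:131982014-131982173 on the minus strand for BNIP3. They end 74 and 90 bases before the RefSeq start. The BNIP3 stretch lies upstream of the gene's row in the table, whereas the PGK1 stretch lies inside its row, which begins at 78065188, in an intron of longer GENCODE transcripts.
PGK1: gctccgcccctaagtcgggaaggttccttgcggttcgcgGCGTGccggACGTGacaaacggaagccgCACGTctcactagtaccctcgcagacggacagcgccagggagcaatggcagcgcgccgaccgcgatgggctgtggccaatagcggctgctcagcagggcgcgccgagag
BNIP3: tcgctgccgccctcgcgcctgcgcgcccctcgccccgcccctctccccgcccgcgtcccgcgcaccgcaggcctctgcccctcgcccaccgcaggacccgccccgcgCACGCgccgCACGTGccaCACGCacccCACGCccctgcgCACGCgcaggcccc
The PGK1 stretch of 176 bases holds 3 matches and the BNIP3 stretch of 160 bases holds 6, of which 2 overlap in CACGTG, where ACGTG on one strand is also its match on the other. Over the 250 bases before each listed start, either core was found in 24 of 44 starts of 22 glycolysis members and in 6 of 8 starts of 8 HIF targets, beside 43.2% of all 35116 starts in the table. ACGTG alone was found in 17 of the 44 and 5 of the 8 starts, beside 18.5% of all starts, and CACGTG, which is also the core of other factors, in 6 and 2 starts, beside 6.34%. No match was found before the listed start of SLC2A1, PGAM1, PKM, LDHB, EGLN3 and P4HA2. SLC2A3, BNIP3L, NDRG1 and VEGFA have no entry in the table. A gene with several starts counts once for each, and a match in so short a motif is a description of letters.

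Depths were 65755119 to 71088867 reads a library. Levels are RPM, reads of a gene scaled to the depth of its library, in the order CLDN6 replicate 1, CLDN6 replicate 2 and WT; changes are differences of log2(RPM + 1). CLDN6 was read at 354, 413 and 0.236 RPM, as its labels say. Epithelial markers were present (7 of 7 at 1 RPM or more, summed level 6064 to 6497 RPM), as were 6 of 6 lineage markers of the uterus. Of the markers of leukocytes 1 of 6, of endothelium 1 of 5 and of stroma 2 of 8 reached 1 RPM, with CD3E, PECAM1, PDGFRB, LUM and DCN at 0 reads in all 3 libraries. The uterine markers summed to 478, 249 and 387 RPM and the stromal ones to 20.02, 51.2 and 24.8 RPM, so both also differ between the CLDN6 replicates; their part in the results below was not tested. The median of all genes tested lay 0.20 above WT in replicate 1 and at -0.35 in replicate 2, so the replicates differ across the table as well as in the genes described here. In bulk RNA, fewer cells with a transcript and less of it per cell cannot be told apart.

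Whether added CLDN6 goes with another level of these genes was asked with limma over the 14509 genes whose mean level reached 1 RPM, which include 34 of the 36. No member passed: 0 of 34 had an adjusted p under 0.05 (limma, Benjamini-Hochberg), beside 0.00689% of all genes, which is CLDN6 alone. An unadjusted p under 0.05 was also seen in 0 members, by limma or limma-voom, beside 0.0276% of all genes by limma. The log2 changes of the mean of both CLDN6 libraries from WT ran from -0.49 for VEGFA to 0.59 for BNIP3, with standard errors of 0.921 to 1.27, and the smallest unadjusted p was 0.555, for SLC2A1 (limma). A doubling over WT in each of the CLDN6 libraries was seen in 0 members, beside 0.0345% of all genes, and a level of at most 0.5 of WT in each in 0 members, beside 0.193%. WT is a single library, and limma took the standard errors from a spread shared over all genes rather than from each gene's own (infinite prior degrees of freedom), so PFKL and PFKP, nearly equal in the CLDN6 libraries, still have errors of 0.931 and 0.938. Between the CLDN6 libraries, 16 of 34 members were at least 2-fold apart, beside 43.4% of all genes, a share near the background.

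The differences between the CLDN6 libraries had a pattern. The transporter SLC2A1 and 8 abundant enzymes (GPI, ALDOA, TPI1, GAPDH, PGK1, PGAM1, ENO1 and PKM) were highest in replicate 2 and lowest in replicate 1, with WT between. That order was seen in 22% of all genes and in 46.1% of those of at least 100 RPM. Of the 10 HIF targets outside glycolysis tested, 6 were highest in replicate 1 and lowest in replicate 2, with WT between. This order was seen in 53.8% of all genes, so the share is near the background. Among the 6, VEGFA was at 68.7 RPM in replicate 1 and 68.2 RPM in WT. The abundant LDHA, LDHB, PFKL and PFKP did not have the order of the 8 enzymes. The glycolysis members together took 11712, 24237 and 16109 RPM, or 1.17%, 2.42% and 1.61% of all reads. The 11 HIF targets together took 331, 111 and 193 RPM.

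**Figure D1:**
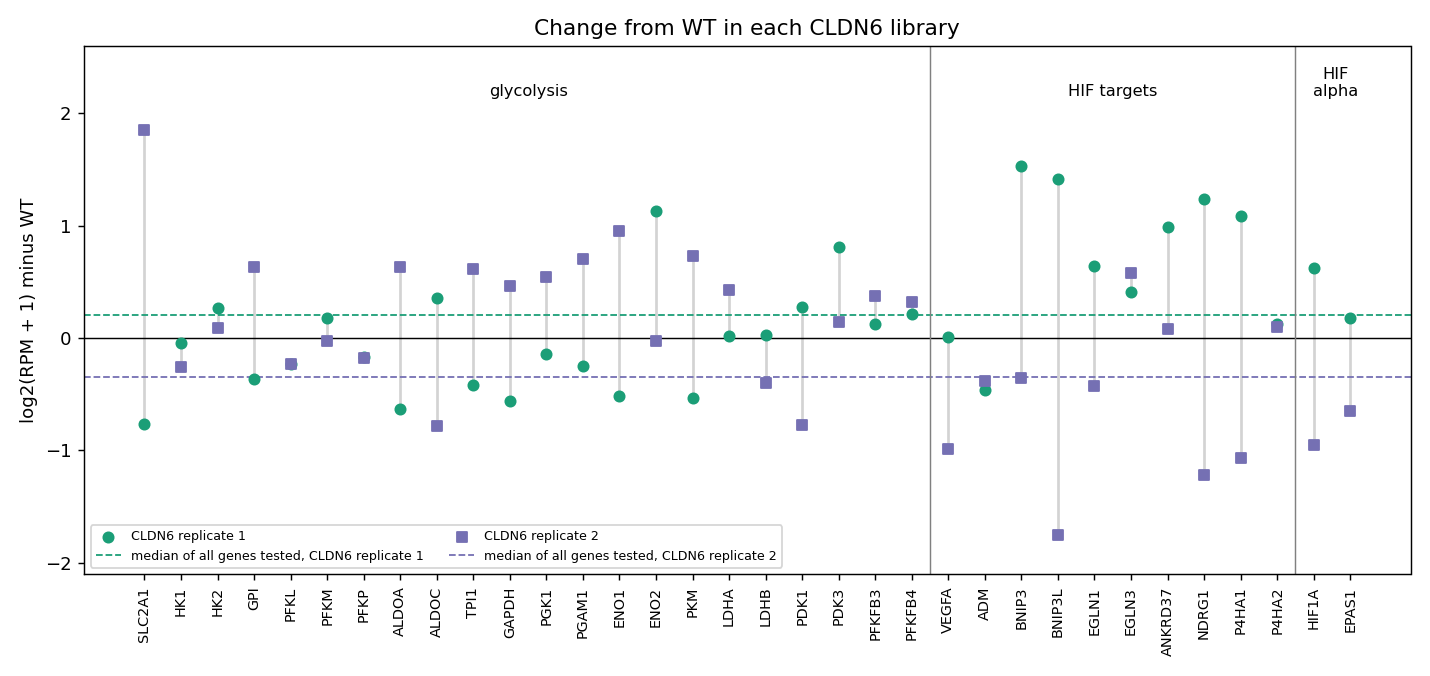
Differences in log2(RPM + 1) from WT (vertical axis) for the 34 genes tested (horizontal axis), in CLDN6 replicate 1 (circles) and replicate 2 (squares), each pair joined by a grey line; dashed lines are the medians of all genes tested, 0.20 and -0.35. SLC2A1, GPI, ALDOA, TPI1, GAPDH, PGK1, PGAM1, ENO1 and PKM have the square on top, and BNIP3, BNIP3L, NDRG1 and P4HA1 have the circle on top.

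Of the glycolysis members tested, SLC2A1 differed most between the replicates. SLC2A1 (GLUT1, the basal glucose transporter, chromosome 1, 42925381 to 42958859, minus strand) was read at 107, 661 and 183 RPM. Replicate 2 was thus 6.17-fold above replicate 1 and 3.62-fold above WT, while replicate 1 was at 0.587 of WT. Only 0.207% of all genes tested lay as far apart in that direction. The mean change from WT was 0.54 ± 0.92 (SE), with adjusted p = 0.99996 (limma, Benjamini-Hochberg). SLC2A3 (GLUT3), the high-affinity transporter of neurons, had 6, 2 and 4 reads, about the limit of 3 reads that a count of 0 allows, so no change can be read from it.

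Of the entry enzymes, the hexokinases and phosphofructokinases lay close together in the 3 libraries. HK1, the housekeeping hexokinase, was at 61.0, 52.7 and 63.0 RPM, and HK2, the inducible one, at 54.3, 48.0 and 45.0 RPM. Neither spanned more than 1.21-fold from WT. PFKL, the liver-type phosphofructokinase subunit, was at 113.1, 112.8 and 133.0 RPM, and the platelet-type PFKP at 97.6, 97.4 and 110.1 RPM. For both, the CLDN6 libraries matched each other to a factor of 1.002 and lay together below WT, at 0.85 of it for PFKL and 0.89 for PFKP. The muscle-type PFKM was at 91.1, 79.1 and 80.6 RPM, and its row overlaps SENP1. These differences did not pass the test, and the order of both PFKL and PFKP against WT turned in replicate 2 under other scalings, where their changes were 0.11 and 0.17 (TMM-like) and 0.27 and 0.33 (median-ratio).

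The other abundant enzymes down to pyruvate shared an order of the libraries. GPI, which turns glucose-6-phosphate into fructose-6-phosphate, was at 258, 515 and 332 RPM. ALDOA, the main aldolase, was at 669.6, 1615 and 1039 RPM. TPI1, triose phosphate isomerase, was at 1241, 2531 and 1656 RPM. In each of the 3, replicate 1 was the lowest library and replicate 2 the highest.

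GAPDH, which makes the NADH of the pathway, was the most abundant member, at 4775, 9732 and 7059 RPM. PGK1, which yields the first ATP, was at 411, 663 and 454 RPM, and PGAM1, phosphoglycerate mutase, at 369, 714 and 437 RPM. ENO1 (alpha-enolase, chromosome 1, 8861002 to 8879249, minus strand) was at 1248, 3450 and 1782 RPM. PKM, pyruvate kinase, was at 1272, 3060 and 1842 RPM. The order was again replicate 1, WT, replicate 2 from low to high in all 5.

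Across these 8 enzymes, replicate 2 was 1.61-fold (PGK1) to 2.76-fold (ENO1) above replicate 1. Against WT, replicate 1 stood at 0.644 to 0.905 and replicate 2 at 1.38 to 1.94 of its level. Among the 22 glycolysis members tested, 9 had this order (the 8 enzymes and SLC2A1), beside 22% of all genes. The count was 15 with TMM-like scaling, beside 34.8% of all genes, and 18 with median-ratio scaling, beside 41.1%. It was 7 with a trend on GC content, length and level removed, beside 31.1%, and 12 with a trend on GC content and length removed, beside 33.4%. The 9 are all abundant, and abundant genes share the order more often: of the 13 members with a mean of at least 100 RPM 9 had it, beside 46.1% of all 1284 genes at that level. With the trend on GC content and length removed, 800 of 1280 genes at that level had the order. Of the 12 members with it under that trend, only PDK1 lies below that level. With level removed as well, 446 of the 1280 genes had it. As deposited, 6 of the 22 were at least 2-fold higher in replicate 2 than in replicate 1, beside 7.15% of all genes and 20.2% of those of at least 100 RPM.

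The less abundant isozymes did not follow. ALDOC, the brain-type aldolase, was at 19.5, 8.26 and 14.9 RPM, and ENO2, the neuronal enolase and itself a HIF target in many cells, at 43.1, 18.9 and 19.2 RPM. Both were highest in replicate 1, by 2.36-fold and 2.29-fold over replicate 2. Their rows overlap others with a like order (RP11-192H23.4 at 13.1, 7.36 and 13.9 RPM on the ALDOC row, LRRC23 at 16.4, 6.08 and 7.56 RPM on the ENO2 row), and reads of such overlaps cannot be assigned. Per kilobase of the longest transcript, ENO1 exceeded ENO2 by 32.1-fold, 203-fold and 103-fold, and ALDOA exceeded ALDOC by 26.9-fold, 153-fold and 54.4-fold. A ratio of 2 genes within a library does not depend on its scaling, so the isozymes changed unequally between the replicates under every scaling.

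At the pyruvate branch, the lactate dehydrogenase subunits differed in their order. LDHA, which favors lactate, was at 365, 485 and 359.9 RPM, with replicate 2 highest. LDHB, the heart-type subunit, was at 463, 345 and 454 RPM, with replicate 2 lowest. Per kilobase, LDHA was at 0.503, 0.894 and 0.504 of LDHB, so that the ratio of replicate 1 lay beside that of WT and replicate 2 stood apart. The pyruvate dehydrogenase kinases, which inactivate pyruvate dehydrogenase, so that less pyruvate becomes acetyl-CoA, and include HIF targets, were low: PDK1 was at 16.0, 7.21 and 13.0 RPM and PDK3 at 3.97, 2.13 and 1.83 RPM. The fructose bisphosphate regulators PFKFB3 and PFKFB4, at 19.7, 23.6 and 18.0 RPM and at 14.7, 15.9 and 12.5 RPM, lay above WT in both CLDN6 libraries by at most 1.31-fold as deposited. Under other scalings replicate 1 fell below WT: PFKFB3 with TMM-like (-0.048) and median-ratio scaling (-0.15), and PFKFB4 with median-ratio scaling (-0.049).

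**Figure D2:**
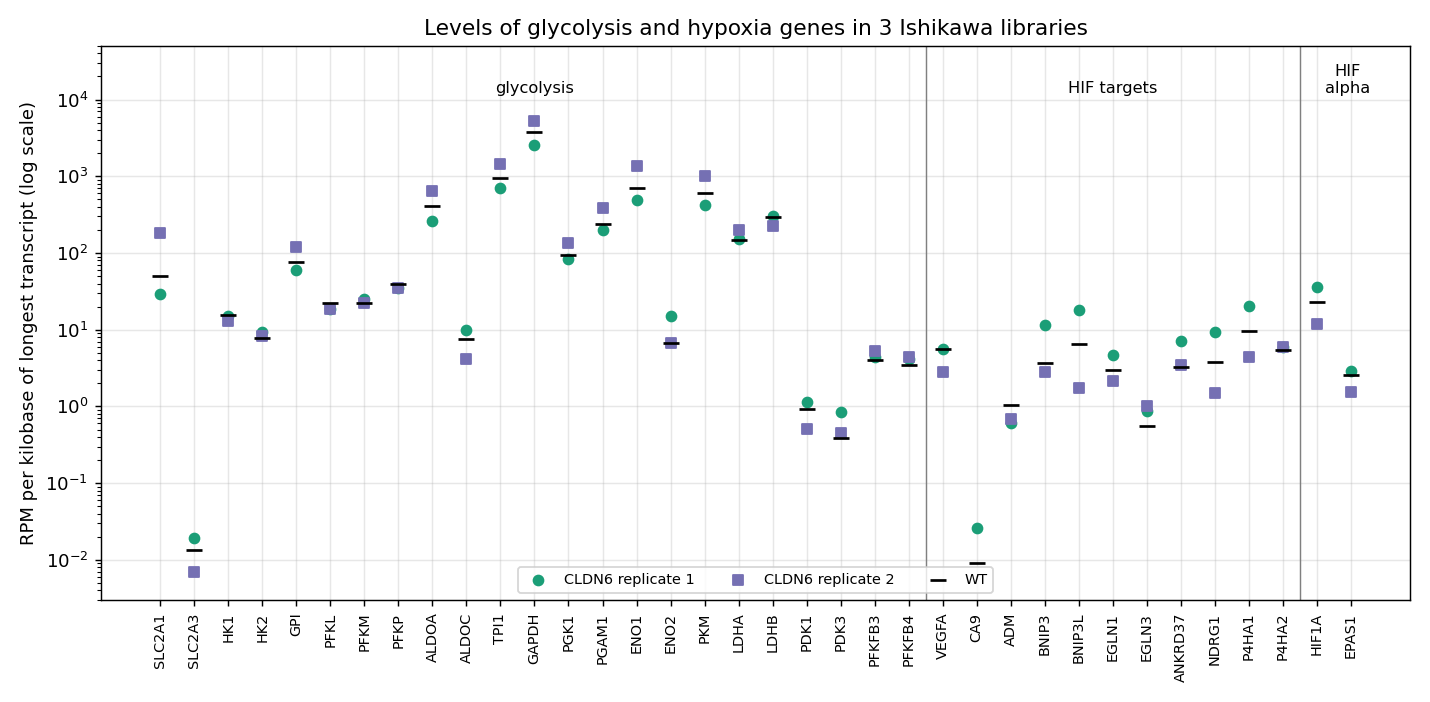
Levels of the 36 genes in RPM per kilobase of the longest GENCODE transcript (vertical axis, log scale), in CLDN6 replicate 1 (circles), CLDN6 replicate 2 (squares) and WT (bars); CA9 has no square because it had 0 reads in replicate 2. GAPDH is highest in each library, and the spread between libraries is widest at SLC2A1 among glycolysis genes and at BNIP3L among HIF targets.

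Among HIF targets outside glycolysis tested, the mitophagy receptor BNIP3L differed most between the replicates. BNIP3L (NIX, chromosome 8, 26382898 to 26505636, plus strand) was at 64.9, 6.33 and 23.7 RPM. Replicate 1 was 10.3-fold above replicate 2, with WT between, and 0.751% of all genes tested lay as far apart in that direction. Its paralog BNIP3 (chromosome 10, 131966455 to 131981931, minus strand) was at 35.0, 8.74 and 11.5 RPM, 3.05-fold above WT in replicate 1 and at 0.764 of WT in replicate 2. The mean changes from WT were -0.17 ± 1.12 (SE) for BNIP3L and 0.59 ± 1.19 for BNIP3, each with adjusted p = 0.99996 (limma, Benjamini-Hochberg).

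NDRG1 (a stress-induced gene long used as a hypoxia marker, chromosome 8, 133237171 to 133302022, minus strand) was at 37.4, 6.02 and 15.3 RPM. P4HA1, the alpha subunit of collagen prolyl 4-hydroxylase (chromosome 10, 73007217 to 73096974, minus strand), was at 58.3, 12.4 and 27.0 RPM. Replicate 1 exceeded replicate 2 by 6.21-fold and 4.71-fold, and 3.75% and 7.46% of all genes lay as far apart. For both, one CLDN6 library was more than 2-fold above WT and the other more than 2-fold below, so the mean change from WT was 0.01 in each. P4HA2, the sister subunit, was at 20.1, 19.7 and 18.4 RPM and did not share the difference. Per kilobase, P4HA1 was at 3.42, 0.740 and 1.73 of P4HA2.

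VEGFA, the angiogenic growth factor, was at 68.7, 33.8 and 68.2 RPM, with replicate 1 beside WT and replicate 2 at 0.496 of it. The oxygen-sensing prolyl hydroxylases EGLN1 and EGLN3, which mark HIF alpha for degradation and are themselves induced by it, were at 33.2, 15.3 and 20.9 RPM and at 2.45, 2.87 and 1.59 RPM. ANKRD37 was at 10.3, 5.02 and 4.69 RPM. The rows of EGLN3 and ANKRD37 overlap SPTSSA (35.8, 16.2 and 24.8 RPM) and UFSP2 (30.6, 10.7 and 18.5 RPM), both more abundant than the member itself, so their levels are uncertain.

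CA9 and ADM were scarce. CA9, the membrane carbonic anhydrase of hypoxic tumors, had 3, 0 and 1 reads, against a limit of 3 reads that a count of 0 allows, so it was not detectable above that limit. ADM, adrenomedullin, was at 1.15, 1.28 and 1.98 RPM, from 82, 84 and 134 reads, with both CLDN6 libraries below WT.

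In all, 6 of 10 HIF targets tested lay above WT in replicate 1 and below it in replicate 2, beside 53.8% of all genes, a share near the background. At least 2-fold higher in replicate 1 than in replicate 2 were 6 of 10, beside 36.2% of all genes; the count for 22 glycolysis members was 3. Above WT in both CLDN6 libraries were 5 of 22 glycolysis members and 3 of 10 HIF targets (EGLN3, ANKRD37 and P4HA2), beside 9.06% of all genes, and below WT in both were 3 and 1, beside 15.1%. The median change of the 10 targets was 0.81 in replicate 1 and -0.41 in replicate 2, and that of the 22 glycolysis members was -0.09 and 0.35, beside 0.20 and -0.35 for all genes. As deposited, the glycolysis median thus lay on the other side of zero from that of all genes in both replicates. Beside all genes, whose medians were 0.04 and -0.05 with TMM-like and -0.05 and 0.08 with median-ratio scaling, it was -0.27 and 0.68, and -0.37 and 0.83. The medians of the HIF targets were 0.64 and -0.14, and 0.55 and -0.012, under these scalings. With the trend on GC content, length and level removed, the glycolysis medians were 0.096 and 0.38, so that of replicate 1 turned, and those of the HIF targets 0.32 and -0.30. All genes of at least 100 RPM had medians of -0.22 and 0.047 as deposited, the signs of the glycolysis members.

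As deposited, both HIF alpha subunits lay above WT in replicate 1 and below it in replicate 2. That is the order of 6 of the 10 targets and of 53.8% of all genes. HIF1A was at 142, 47.0 and 91.9 RPM, with replicate 1 3.02-fold above replicate 2, and 19.3% of all genes lay as far apart. EPAS1, which encodes HIF-2 alpha, was at 15.1, 8.08 and 13.2 RPM. Per kilobase, HIF1A exceeded EPAS1 by 12.3-fold, 7.60-fold and 9.08-fold.

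GC content moves with the difference between the replicates. Across the 14372 genes tested with an annotation, replicate 1 minus replicate 2 had a Spearman correlation of -0.61 with the GC content of the longest transcript and 0.44 with its length. Across the 34 members these were -0.46 and 0.26. Genes are not independent replicates, and the points share the same pair of libraries. HIF1A (36.4% GC), BNIP3L (38.9%) and P4HA1 (40.8%) are poor in GC, where replicate 1 was higher in most genes. NDRG1 (52.1%) and BNIP3 (51.4%), also higher in replicate 1, lie above the median GC content of all genes tested, 48.7%. SLC2A1 (54.8%), higher in replicate 2, lies above that median, and PGK1 (43.3%), higher in replicate 2, below it. Whether GC content is a cause of these differences was not tested.

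With a fitted trend on GC content, length and mean level removed, the difference of replicate 1 minus replicate 2 was 2.03 for NDRG1, 1.94 for BNIP3L, 1.62 for BNIP3 and 1.26 for P4HA1, and -2.18 for SLC2A1. That of HIF1A shrank from 1.57 to 0.58, and those of TPI1 and GAPDH from -1.03 to 0.0026 and -0.02. That of ENO1 shrank from -1.47 to -0.84, of GPI from -0.996 to -0.75, of PKM from -1.27 to -0.70, of ALDOA from -1.27 to -0.54 and of PGAM1 from -0.95 to -0.18, while that of PGK1 went from -0.69 to -1.28. At least 2-fold apart were then 4 of 10 HIF targets, all higher in replicate 1, beside 8.04% of all genes. Of the 22 glycolysis members, 3 (SLC2A1, PGK1 and PDK1) were higher in replicate 2, beside 7.93%, and 2 (ALDOC and ENO2) in replicate 1. PDK1 had been higher in replicate 1 as deposited, by 1.05. The level of a gene does not enter the trend on GC content and length alone. With that trend, 8 of the 22 were at least 2-fold higher in replicate 2, beside 9.96% of all genes. The share was 25.2% among genes of at least 100 RPM, a level that 7 of the 8 reach. Another 2 of the 22, ALDOC and ENO2, were at least 2-fold higher in replicate 1, beside 9.82% of all genes. Of the HIF targets, 4 were 2-fold higher in replicate 1 with that trend, beside 9.82%. The difference of HIF1A was then 0.077, with changes from WT of -0.077 and -0.15, and those of TPI1 and GAPDH were -0.62 and -0.59.

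**Figure D3:**
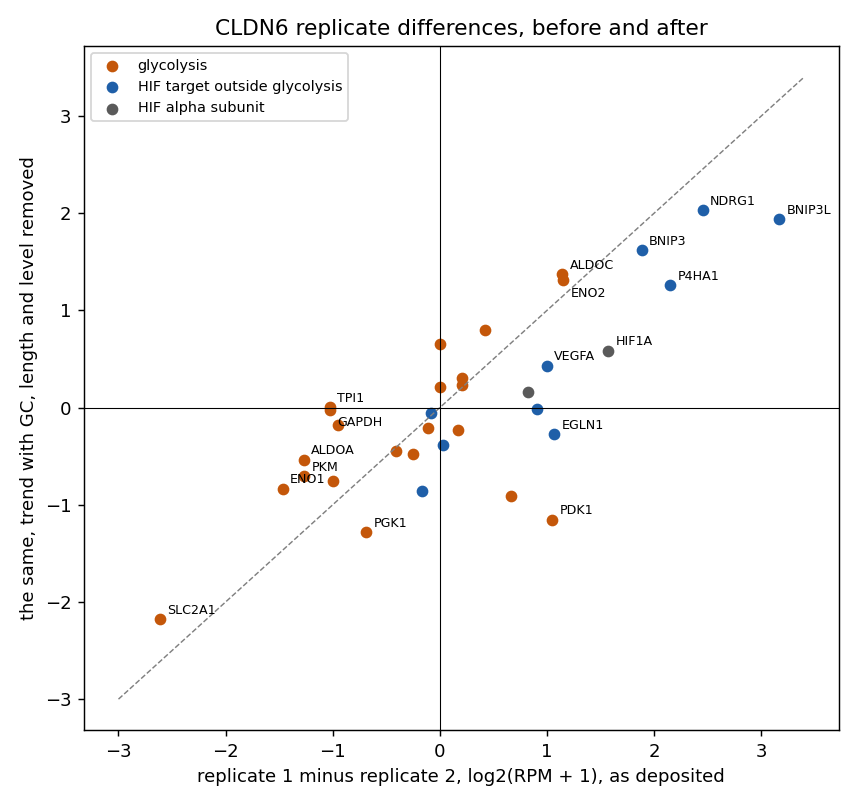
Difference in log2(RPM + 1) of CLDN6 replicate 1 minus replicate 2 as deposited (horizontal axis) and with the trend on GC content, length and mean level removed (vertical axis), for the 34 genes tested; the dashed line marks equal values. SLC2A1 stays at the lower left and NDRG1, BNIP3L, BNIP3 and P4HA1 at the upper right, while TPI1 and GAPDH move to zero.

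The direction between the replicates held in 21 of 34 members under every scaling, filter and trend tried. Among them were SLC2A1 (-3.40 to -2.18 over these settings), ENO1 (-2.26 to -0.84), BNIP3L (1.82 to 3.36), NDRG1 (1.73 to 2.64), BNIP3 (1.14 to 2.003) and P4HA1 (1.06 to 2.24). It turned in 13, among them HK1, HK2, the 3 phosphofructokinases, TPI1, LDHB, PDK1 and EGLN1, each time under a scaling or a trend. Filters on low values leave a gene's own difference as it is and could not turn it. How many of all genes held their direction was not counted.

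Other genes of the pathway, listed by name with earlier results of these data known, also gave no call. Of 24 other genes of glycolysis and pyruvate use tested, 0 passed in either direction (limma, Benjamini-Hochberg). Of the 24, 15 lay above WT in replicate 1 and below it in replicate 2, near the 53.8% of all genes. The opposite order, that of the abundant enzymes above, was seen in 3, beside 22% of all genes. At least 2-fold higher in replicate 1 than in replicate 2 were 7, beside 36.2% of all genes, with 1 the other way, beside 7.15%. Their median changes were 0.18 in replicate 1 and -0.33 in replicate 2, beside 0.20 and -0.35 for all genes. These other genes thus did not share the order of the abundant enzymes as a set. However, none reaches a mean of 100 RPM, a level at which the order is more frequent. Of those named next, ENO3 and PGM1 had the order, and SLC16A1 and ADPGK did not. The most abundant of the 24 was ENO3, the muscle enolase, at 60.1, 143 and 89.6 RPM, whose row overlaps the abundant PFN1. PGM1, phosphoglucomutase, was at 77.6, 109 and 78.8 RPM, the lactate carrier SLC16A1 (MCT1) at 72.4, 49.5 and 63.3 RPM, and the ADP-dependent glucokinase ADPGK at 61.1, 58.6 and 49.7 RPM.

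Of 9 oxygen-sensing genes tested 0 passed. Above WT in replicate 1 and below it in replicate 2 were 4 of the 9, beside 53.8% of all genes. The opposite order was seen in 3, beside 22%. VHL, the ubiquitin ligase subunit that binds HIF alpha, was at 75.2, 28.6 and 53.0 RPM. The asparaginyl hydroxylase HIF1AN was at 93.1, 97.6 and 99.1 RPM, elongin B (ELOB) at 56.2, 128 and 83.3 RPM and EGLN2 at 40.9, 63.9 and 50.7 RPM. Of 19 other HIF targets tested 0 passed. At least 2-fold higher in replicate 1 than in replicate 2 were 12 of the 19, beside 36.2% of all genes. The other way was 1, beside 7.15%. STC2, stanniocalcin 2, was at 90.3, 19.8 and 93.9 RPM and DDIT4, an mTOR inhibitor, at 253, 91.9 and 280.4 RPM, so in these replicate 1 lay beside WT. KDM4B, a histone demethylase, was at 49.6, 38.6 and 55.8 RPM, and ERO1A, an oxidase of the endoplasmic reticulum, at 58.0, 23.8 and 37.6 RPM.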

How the data were processed

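RNA of 2 CLDN6 libraries and 1 WT library was measured. The deposited values are log2 RPM per gene, with genome build GRCh38 per the submitters' processing notes; for aligner, counter and strand setting, no source used here gives a name. The columns carry the prefix ECC-1, which no label has, and were matched by CLDN6 1, CLDN6 2 and WT. Values are whole multiples of 1 read for 99.96% to 99.99% of rows (tolerance 0.05 of a read), with 0 reads listed at 0.9. Of 35805 rows, 92 without a usable gene ID were left out.

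log2(RPM + 1) was fitted with limma 3.58.1 (R 4.3.3, mean-variance trend, 1 residual degree of freedom, two-sided, Benjamini-Hochberg over all 14509 genes whose mean reached 1 RPM, threshold 0.05). All 36 members are named; of the other lists, the 4 most abundant genes. Length and GC content are from GENCODE release 29; trends used splines of 5 degrees of freedom. Alternatives were another pseudocount (0.1), other filters, TMM-like and median-ratio scaling, trend removal, limma-voom and each CLDN6 library left out. Scripts were tested on simulated data. Members and lists were chosen with earlier results of these data known. Of the members, 24 share their row with another; in 9 (ALDOC, ANKRD37, CA9, EGLN3, ENO2, GAPDH, GPI, P4HA2, PFKM) the other row has at least 10% of their level. Reads of the 62 GAPDH, 39 BNIP3 and 13 PGAM1 pseudogenes of GENCODE, none of which is a row here, may be counted with or lost from these genes. The p-values rest only on the spread between the CLDN6 libraries, possibly technical, and the WT library is assumed to vary like them. Limits of detection cover counting error only.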

Additional observations from a re-analysis of the deposited data

How the results depend on the processing

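No paired analysis was possible because the WT library carries no replicate number, so the groups share fewer than 2 numbers. Members called remained 0 under all 8 alternatives with a test. The count over all genes, 1 as reported, was 0 with no filter on low values and 0 with limma-voom. Of 269 changes of members under alternatives other than leaving out a library, 260 kept their direction and 9 reversed: PFKL (0.022 with the trend on GC content, length and level removed, and 0.017 with that on GC content and length, a trend added after the data were seen), GAPDH (0.035 with TMM-like scaling, 0.061 with median-ratio scaling, 0.019 with the full trend removed), PDK1 (0.011, full trend), NDRG1 (-0.024 with a pseudocount of 0.1 and -0.0053 with limma-voom) and P4HA1 (-0.0067 with that pseudocount). Filters on low values leave a gene's own change as it is, so the values under them could not reverse. The causes of the reversals were not tested.

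Leaving out a CLDN6 library leaves 1 against 1 and no test. It turned the direction of 22 members, as the replicates lie on either side of WT. The lowest and highest changes were -0.76 and 1.85 for SLC2A1, -0.36 and 0.63 for GPI, -0.028 and 0.17 for PFKM, -0.63 and 0.64 for ALDOA, -0.78 and 0.36 for ALDOC, -0.42 and 0.61 for TPI1, -0.56 and 0.46 for GAPDH, -0.14 and 0.54 for PGK1, and -0.24 and 0.71 for PGAM1. They were -0.51 and 0.95 for ENO1, -0.023 and 1.13 for ENO2, -0.53 and 0.73 for PKM, -0.40 and 0.026 for LDHB, -0.77 and 0.28 for PDK1, -0.99 and 0.0098 for VEGFA, -0.35 and 1.53 for BNIP3, and -1.76 and 1.41 for BNIP3L. For EGLN1 they were -0.43 and 0.64, for NDRG1 -1.22 and 1.24, for P4HA1 -1.07 and 1.08, for HIF1A -0.95 and 0.62, and for EPAS1 -0.65 and 0.18. Orders of the libraries and counts of members 2-fold apart need both CLDN6 libraries and have no such value.

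The glycolysis median in replicate 2 moved to 0.68 with TMM-like and 0.83 with median-ratio scaling. Glycolysis members above WT in both CLDN6 libraries numbered 2 with median-ratio scaling and 8 with the full trend removed; those below in both 1 with TMM-like scaling, 0 with median-ratio scaling and 0 with the full trend removed. Those above in replicate 1 alone numbered 2, 2, 3 and 2 with TMM-like scaling, median-ratio scaling, the GC and length trend removed, and members with overlapping rows left out (also added later), and those above in replicate 2 alone 15 and 18 under the 2 scalings. Those 2-fold higher in replicate 1 numbered 0 and 0 under the 2 scalings and 1 without overlapping rows, and those 2-fold higher in replicate 2 numbered 11 with median-ratio scaling and 3 with the full trend removed.

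HIF targets above WT in both numbered 0 without overlapping rows. Those below in both numbered 0 with a mean of at least 5 RPM and 2 under each of the 2 scalings and 2 trends. Those above in replicate 1 alone numbered 3 with median-ratio scaling, and those above in replicate 2 alone 1 under each scaling and trend. With no length correction, the mean log2 ratio was 0.26 for HK1 to HK2, -0.062 for LDHA to LDHB, 2.20 for PDK1 to PDK3, 0.50 for PFKFB3 to PFKFB4, -0.23 for PFKP to PFKL, -0.52 for PFKM to PFKL, 3.30 for EGLN1 to EGLN3 and 2.86 for HIF1A to EPAS1. Per kilobase these were 0.79, -0.71, 0.61, 0.17, 0.88, 0.23, 1.98 and 3.24, so PFKP and PFKM exceed PFKL only per kilobase. Depth limits SLC2A3 and CA9, which lie at or near 3 reads.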
